A study of Mus musculus with 12 samples.

Results

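The translation initiation and elongation factors are the proteins that bring a ribosome to the start of an mRNA and then drive it along the coding sequence. Their genes were chosen by symbol: every mouse symbol that begins with Eif1 to Eif6 or with Eef1 or Eef2, pseudogenes apart, with at least 100 counts summed over the 12 libraries. Of 69 such symbols 64 reached that minimum, among 56980 gene IDs in all, and all 64 passed the filter on low counts. The cells were NIH/3T3, an immortalised line of mouse embryonic fibroblasts described as wild type and grown in DMEM with 10% fetal bovine serum. They were treated for 8 h with 200 nM carfilzomib and 5 µM doxorubicin together (CFZ-DOX), with 200 nM carfilzomib alone (CFZ), with 5 µM doxorubicin alone (DOX) or with the vehicle DMSO. Carfilzomib blocks the proteasome irreversibly. The anthracycline doxorubicin slips between DNA bases and traps topoisomerase II on DNA. Polyadenylated RNA was sequenced in 3 libraries per group. Nothing in the labels says that the 3 came from separate cultures. The p-values therefore measure the spread between these libraries, which may be technical.

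Initiation in mammalian cells begins when eIF4F, made of the cap-binding eIF4E, the scaffold eIF4G and the helicase eIF4A, binds the mRNA cap. eIF3 and eIF2, which carries the initiator methionyl-tRNA with GTP, bring the small ribosomal subunit to the mRNA. The factors eIF1, eIF1A and eIF5 select the start codon. eIF2B recharges eIF2 with GTP and is blocked when an eIF2 kinase phosphorylates the alpha subunit of eIF2, a switch for which stressed fibroblasts are a standard model. In elongation eEF1A delivers aminoacyl-tRNAs, the eEF1B complex recharges eEF1A, eEF2 moves the ribosome on by a codon, and eEF2 kinase inactivates eEF2. The mRNAs of the elongation factors and of several eIF3 subunits belong to the TOP class, whose 5′ end is a C followed by a run of pyrimidines and whose translation depends on the kinase mTORC1. Ribosomal protein mRNAs are the largest group of that class.

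Stretches near the 5′ ends of 3 of these mRNAs are shown because most TOP members had higher counts with doxorubicin than with DMSO. All 3 were called higher in DOX by the main test given below. Eif4b, called lower in DOX by that test, and Eif3e, not called by it, also hold such a tract and are not shown. Each line runs 5′ to 3′ and capitals mark a C followed by at least 5 pyrimidines. The Eif3f line begins at base 1 of the RefSeq start in GRCm38.p6, at chr7:108934415-108934444 on the plus strand. The Eef1a1 and Eif3h lines are bases 46 to 75 and 30 to 59 of their transcripts in GENCODE M21, so they do not begin at the annotated 5′ end. They were taken there because Eif3h has no promoter entry here and the tract of Eef1a1 lies past the promoter window.
Eif3f: CTCTCTTTCTCggcaagatggcttctccgg
Eef1a1: tggacgttCTTTTTCgcaacgggtttgccg
Eif3h: gcctcacgCTTCTCTTTCTTCCTgtctggc

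Library totals were 28278879 to 42033993 counts. Of the 6 fibroblast markers, Col1a1, Col1a2, Pdgfrb, Thy1 and Vim were at 33.6 CPM or more in every library. CPM is the gene's count scaled by library size and the TMM factor. The marker S100a4 lay between 2.95 and 56.0 CPM. The 6 markers summed to 29045 to 63097 CPM in CFZ-DOX, 11081 to 15383 CPM in CFZ, 22095 to 42677 CPM in DOX and 18808 to 22082 CPM in DMSO libraries. The 5 epithelial, 3 endothelial and 3 muscle markers summed to at most 3.52, 3.43 and 2.06 CPM in any library. The 3 leukocyte markers summed to 10.4 to 13.4 CPM in CFZ-DOX, 1.24 to 1.57 CPM in CFZ, 2.57 to 4.14 CPM in DOX and 0.896 to 1.35 CPM in DMSO libraries. Nearly all of it was Cd68, a lysosomal protein, while Ptprc did not exceed 0.211 CPM. The libraries DOX 3 and CFZ-DOX 3 stood apart: the median member lay −0.22 and −0.19 log2 units from its group mean there, against −0.08 to 0.12 in the other 10 libraries. The part of these markers and libraries in the differences between groups was not tested, beyond the fits without a library given with the results. In bulk RNA of this kind fewer cells and less RNA per cell cannot be told apart.

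The members took a larger part of all counts in the doxorubicin libraries. It was 4.99 ± 0.046% in CFZ-DOX, 3.34 ± 0.164% in CFZ, 3.89 ± 0.085% in DOX and 3.23 ± 0.11% in DMSO libraries (SD, n = 3 each). Eef1a1 and Eef2 together took 3.12 ± 0.099% in CFZ-DOX, 1.57 ± 0.083% in CFZ, 2.05 ± 0.118% in DOX and 1.37 ± 0.027% in DMSO libraries. The other 62 members took 1.87 ± 0.14% in CFZ-DOX, 1.77 ± 0.094% in CFZ, 1.84 ± 0.1% in DOX and 1.87 ± 0.091% in DMSO libraries, which overlap between all 4 groups. The 77 cytosolic ribosomal protein genes, which are no members, were likewise highest in CFZ-DOX and next in DOX. They took 10.3 ± 0.34% in CFZ-DOX, 4.21 ± 0.26% in CFZ, 7.04 ± 0.3% in DOX and 4.19 ± 0.18% in DMSO libraries. Their CFZ and DMSO libraries overlapped, whereas for Eef1a1 and Eef2 together each CFZ library was above each DMSO library. A fold change per gene is therefore relative to a pool whose makeup differed between the groups. Each comparison was therefore made on 5 scales: by TMM, by upper quartile, by library size alone, by RLE size factors, and by the summed counts of the 77 ribosomal protein genes. Over all genes, the last of these shifted the median log2 fold change by −0.10 in CFZ, −0.86 in DOX and −1.63 in CFZ-DOX against DMSO.

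Members were called both higher and lower in each treatment. With TMM scaling, edgeR's quasi-likelihood test and an adjusted p under 0.05 over all 16648 genes tested, CFZ raised 11 of the 64 members and lowered 5 against DMSO (8 lower with the replicate number as a block). Of all genes 14.4% were higher and 14.4% lower. Without any 1 CFZ or DMSO library, CFZ raised 5 to 7 members; it lowered 3 without CFZ 1, CFZ 2 or DMSO 1, and 8 without DOX 3. In a fit of the CFZ and DMSO libraries alone, 23 were higher and 10 lower. DOX raised 17 and lowered 25, against 36.1% and 31.3% of all genes. CFZ-DOX raised 21 and lowered 27 relative to DMSO, against 39.3% and 35.7% of all genes. As shares of the members these are 17.2% and 7.81% in CFZ, 26.6% and 39.1% in DOX and 32.8% and 42.2% in CFZ-DOX. The median log2 fold change of the members was 0.12 in CFZ, −0.09 in DOX and −0.11 in CFZ-DOX, against −0.01, 0.14 and 0.09 over all genes tested. For the 77 ribosomal protein genes it was 0.08, 0.91 and 1.66.

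The falls with DOX kept their sign under every scaling tried, and most rises with doxorubicin turned, but only under ribosomal protein scaling. That scale shifted the median of all genes downward, as given above, so it could turn rises and hardly a fall. The contrast of signs is therefore no measure of which calls are firmer. Under upper-quartile scaling, which shifted that median by 0.37 in DOX, 15 calls in DOX were lost, all of them falls. All 25 falls with DOX were negative in all 5 scalings and 10 of them were called in all 5 (22.3% of all genes were called lower in all 5). Of the 17 rises 15 turned negative under ribosomal protein scaling and none was called in all 5 (13.4% of all genes were called higher in all 5). In CFZ-DOX against DMSO 15 members were lower in all 5 scalings (24.8% of all genes) and 0 were higher (11.2%). Of the 21 rises 20 turned negative under ribosomal protein scaling, Eef1b2 being the exception. Of the 27 falls 2, Eif5 and Eif6, were slightly positive under upper-quartile scaling. In CFZ against DMSO the members Eef1a2, Eif2b4, Eif3g and Eif6 were higher in all 5 scalings (7.9% of all genes), and Eef2k, Eif4ebp2, Eef1akmt1 and Eef2kmt were lower (12%). Eef1a2 passed the filter on low counts through its CFZ libraries, so it lends no support to the count of higher members. In CFZ against DMSO 22 members were higher and 10 lower in a fit without DOX 3 and CFZ-DOX 3.

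**Figure D1:**
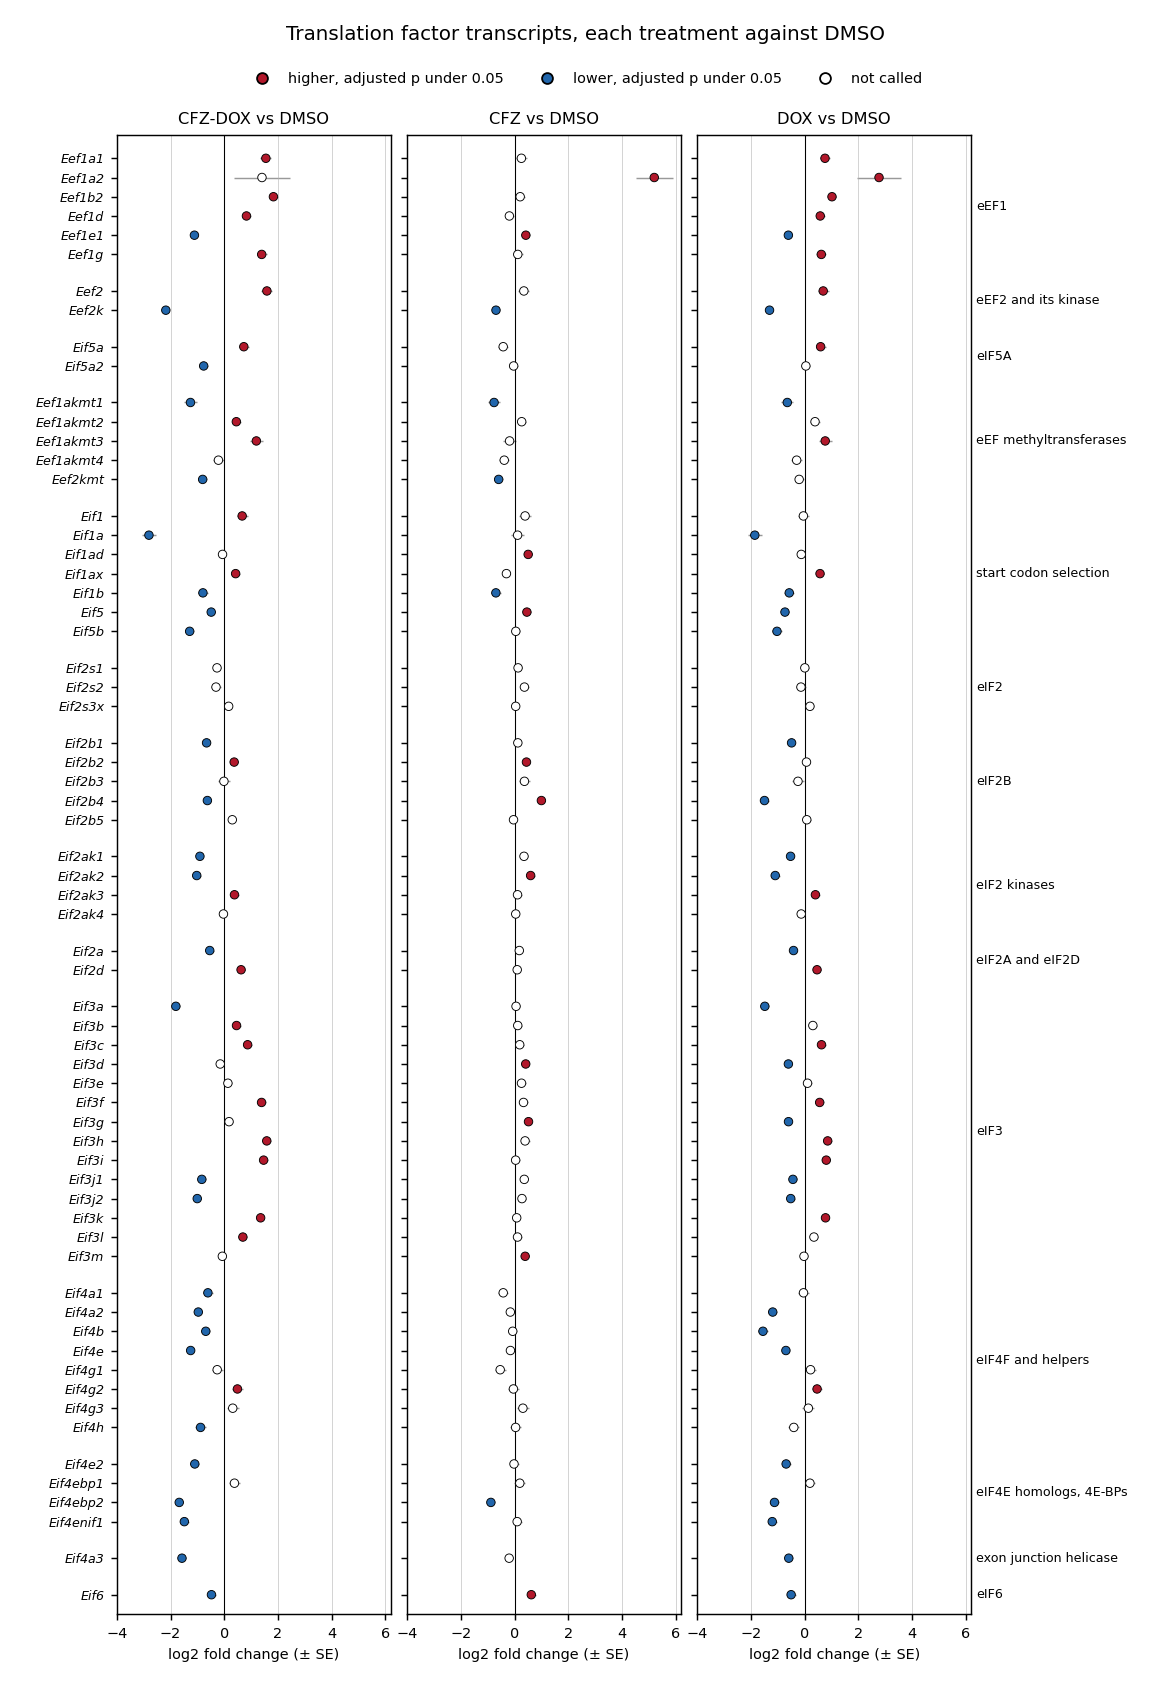
Log2 fold change (x axis, ± SE) of each of the 64 members, grouped by complex, in CFZ-DOX, CFZ and DOX libraries against DMSO libraries (3 per group, TMM scaling); filled points passed an adjusted p of 0.05 in edgeR. In eEF1, eIF3 and the start codon factors red and blue points stand side by side in the doxorubicin panels. Under ribosomal protein scaling most red points of those panels lie below 0.

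The core elongation factors Eef1a1, Eef1b2, Eef1d, Eef1g and Eef2 were higher in CFZ-DOX and in DOX than in DMSO libraries on the TMM scale. Of these 5, Eef1b2 alone kept its sign under ribosomal protein scaling (0.17 in CFZ-DOX and 0.13 in DOX), without a call there. Against DOX, CFZ-DOX was called higher for Eef1a1, Eef1b2, Eef1g and Eef2 but not for Eef1d (0.24, adjusted p = 0.319). Those 4 calls were lost in a fit of the 6 CFZ-DOX and DOX libraries alone, and that of Eef1a1 also without DOX 2. Eef1a1, on chromosome 9 at 78385731 to 78396433 (GRCm39, minus strand), encodes eEF1A1, the main carrier of aminoacyl-tRNAs. It had 27397, 21871 and 19389 CPM in CFZ-DOX, 8878, 9236 and 9932 in CFZ, 15888, 12582 and 11224 in DOX and 7758, 7904 and 7836 in DMSO libraries. The CFZ-DOX libraries were above all others and the DOX libraries above all CFZ and DMSO libraries. Each CFZ library was above each DMSO library, but that difference was not called. Its log2 fold change against DMSO was 1.55 ± 0.20, adjusted p = 7.78e-06 in CFZ-DOX, 0.26 ± 0.20, adjusted p = 0.369 in CFZ and 0.76 ± 0.20, adjusted p = 0.00373 in DOX. Under ribosomal protein scaling the values were −0.12, 0.16 and −0.14. On that scale none of the 3 differences was called.

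Eef2, on chromosome 10 at 81012465 to 81018332 (plus strand), encodes the translocase eEF2. It had 16569, 13483 and 10919.8 CPM in CFZ-DOX, 5558, 5970.3 and 5851 in CFZ, 8994, 7133 and 5894 in DOX and 4444, 4644 and 4567 in DMSO libraries. Its order of groups was that of Eef1a1, with no overlap between CFZ-DOX and the other groups. The log2 fold change was 1.59 ± 0.21, adjusted p = 8.23e-06 in CFZ-DOX and 0.69 ± 0.20, adjusted p = 0.00802 in DOX against DMSO (under ribosomal protein scaling −0.085 and −0.21). The 3 subunits of the exchange factor eEF1B moved the same way. Eef1b2, its catalytic alpha subunit, averaged 1586 ± 229 CPM in CFZ-DOX, 517 ± 43.6 in CFZ, 904 ± 137 in DOX and 447 ± 29.5 in DMSO libraries (SD, n = 3). Against DMSO Eef1b2 had a log2 fold change of 1.83 ± 0.17, adjusted p = 2.93e-07 in CFZ-DOX and 1.02 ± 0.16, adjusted p = 8.97e-05 in DOX, the largest called rise of any member in CFZ-DOX. Eef1g, the scaffold gamma subunit, rose on the log2 scale by 1.39 ± 0.19 and Eef1d, the delta subunit, by 0.82 ± 0.17 in CFZ-DOX, and by 0.62 ± 0.18 and 0.58 ± 0.17 in DOX. These values turn to −0.27, −0.84, −0.28 and −0.31 under ribosomal protein scaling. None of the 5 was called in CFZ against DMSO on the TMM scale over all 12 libraries. Eef1a1 and Eef2 were called higher there in a fit of the CFZ and DMSO libraries alone, and Eef2 also under library size and ribosomal protein scaling (0.26 and 0.25).

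Eef2k, on chromosome 7 at 120442054 to 120506673 (plus strand), encodes the kinase that inactivates eEF2. In CFZ-DOX and DOX it was lower where Eef2 was higher on the TMM scale; under ribosomal protein scaling Eef2 was not higher, as given above. It had 18.7, 18.9 and 15.9 CPM in CFZ-DOX, 53.7, 50.3 and 46.4 in CFZ, 31.1, 34.9 and 31.8 in DOX and 86.4, 81.0 and 75.3 in DMSO libraries. The 4 groups did not overlap: DMSO libraries were highest, then CFZ, DOX and CFZ-DOX libraries. The log2 fold change against DMSO was −2.18 ± 0.13, adjusted p = 7.76e-09 in CFZ-DOX, −0.69 ± 0.12, adjusted p = 0.000827 in CFZ and −1.31 ± 0.12, adjusted p = 6.58e-07 in DOX. Eef2k was called lower in all 5 scalings in each of the 3. The interaction of the drugs was −0.18 ± 0.17, adjusted p = 0.498, so no departure from the sum of the single effects was detected on the TMM scale. Over the 5 scalings the interaction of Eef2k ran from −0.87 to −0.0087, and it was called lower under ribosomal protein scaling.

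Eef1a2 encodes the eEF1A form of muscle and neurons and was near the detection limit. It had 0, 4 and 4 counts in CFZ-DOX, 54, 64 and 34 counts in CFZ, 3, 6 and 19 counts in DOX and 2, 1 and 1 counts in DMSO libraries. Pooled over libraries and corrected for depth, its ratio to DMSO was 38.7 in CFZ (95% exact interval 14.8 to 144), 6.83 in DOX (2.39 to 26.8) and 2.19 in CFZ-DOX (0.586 to 9.93). The intervals cover counting error only. The gene passed the filter on low counts through the CFZ libraries, which is the group where it was high. Its call in DOX was lost without DOX 3. Eef1e1, a scaffold protein of the aminoacyl-tRNA synthetase complex whose name only resembles the elongation factors, had 15.9, 16.2 and 19.8 CPM in CFZ-DOX, 47.1, 54.3 and 49.4 in CFZ, 24.2, 27.8 and 21.8 in DOX and 35.9, 41.0 and 35.7 in DMSO libraries. It had a log2 fold change in CFZ-DOX of −1.12 ± 0.14, adjusted p = 7.61e-06 and in DOX of −0.61 ± 0.14, adjusted p = 0.00172. Its rise in CFZ, 0.42 ± 0.14, adjusted p = 0.038, was lost when any CFZ or DMSO library was left out.

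Eif5a encodes eIF5A, which carries the amino acid hypusine and helps the ribosome through stretches such as proline runs. It had 2455, 2719.9 and 1800.2 CPM in CFZ-DOX, 1027, 1145 and 976 in CFZ, 2211, 2402 and 1752 in DOX and 1304, 1474 and 1440.3 in DMSO libraries. All DOX and CFZ-DOX libraries were above all CFZ and DMSO libraries. Against DMSO its log2 fold change was 0.73 ± 0.18, adjusted p = 0.00253 in CFZ-DOX and 0.59 ± 0.18, adjusted p = 0.0109 in DOX, or −0.93 and −0.29 under ribosomal protein scaling. The DOX call was lost without DOX 2 or DMSO 1. Its rarer paralogue Eif5a2 averaged 8.6 ± 1.51 CPM in CFZ-DOX, 14.3 ± 1.30 in CFZ, 15.1 ± 2.09 in DOX and 14.7 ± 0.731 in DMSO libraries. It was called lower than DMSO in CFZ-DOX libraries (−0.77 ± 0.17, adjusted p = 0.00077) and not in CFZ or DOX libraries. Of the 5 methyltransferase genes of the elongation factors, Eef1akmt1, which methylates eEF1A, had log2 fold changes of −1.26 ± 0.23, adjusted p = 0.000164 in CFZ-DOX, −0.76 ± 0.22, adjusted p = 0.0193 in CFZ and −0.65 ± 0.22, adjusted p = 0.0187 in DOX. The DOX call was lost without DOX 3. The CFZ call of Eef1akmt1 was lost without any 1 of CFZ 1, CFZ 2 and the 3 DMSO libraries. Eef2kmt, which methylates eEF2, fell in CFZ-DOX and in CFZ (in CFZ −0.59 ± 0.17, adjusted p = 0.0182, lost without CFZ 2, CFZ 3 or DMSO 1). Eef1akmt3 was called higher in CFZ-DOX and DOX (in DOX 0.76 ± 0.24, adjusted p = 0.0106, lost without DOX 2). Both values were negative under ribosomal protein scaling. Eef1akmt2 was called higher in CFZ-DOX, with the same change of sign, and that call was lost without CFZ-DOX 1, CFZ-DOX 2, CFZ 2, CFZ 3, DMSO 1 or DMSO 2. Eef1akmt4 was not called on the TMM scale. Eef1akmt3 and Eef2kmt had at most 3.72 and 10.1 CPM. The genes Mettl1 and Alg1, on the opposite strand, share exon bases with them.

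**Figure D2:**
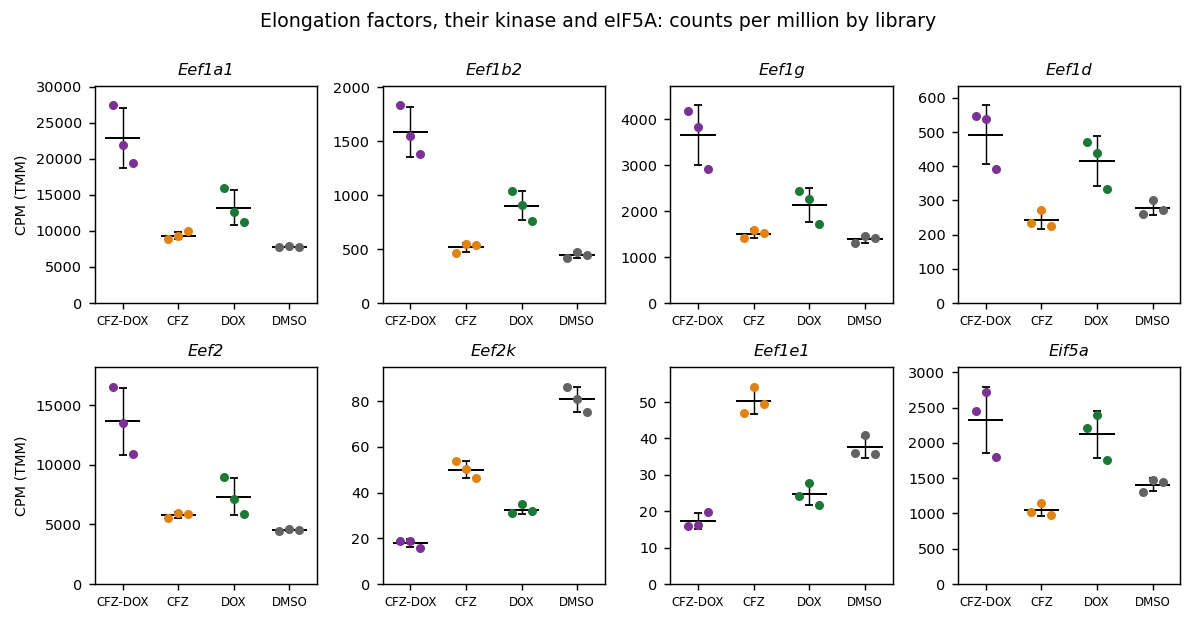
TMM-scaled CPM of 8 members in each of the 12 libraries, 1 point per library, with the mean and SD of 3 as bars. Columns are CFZ-DOX, CFZ, DOX and DMSO, and each panel's axis starts at 0. Eef1a1, Eef1b2, Eef1g and Eef2 are highest in CFZ-DOX and next in DOX, an order that rests on the scaling. Eef2k is highest in DMSO, then CFZ, DOX and CFZ-DOX, with no overlap between groups.

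The 3 subunits of eIF2 were not called in any treatment against DMSO on the TMM scale over all 12 libraries. Under ribosomal protein scaling all 3 were called lower in DOX and in CFZ-DOX. Eif2s1 and Eif2s2 were called lower in CFZ-DOX under library size scaling. Eif2s3x was called higher in DOX and CFZ-DOX under upper-quartile scaling (0.57 and 0.66). Eif2s1, the alpha subunit that the stress kinases phosphorylate, had 133, 164 and 128 CPM in CFZ-DOX, 161, 199 and 202 in CFZ, 182, 193 and 140.4 in DOX and 157, 187 and 169 in DMSO libraries. The groups overlap. The log2 fold changes against DMSO were −0.27 ± 0.16, adjusted p = 0.127 in CFZ-DOX, 0.13 ± 0.16, adjusted p = 0.578 in CFZ and 0.01 ± 0.16, adjusted p = 0.979 in DOX. Eif2s2, the beta subunit, and Eif2s3x, the gamma subunit on the X chromosome, ranged from −0.31 to 0.37 and from 0.04 to 0.20 on the log2 scale over the 3 treatments. Eif2s3y, the Y-linked copy of the gamma subunit, had 1 count over all 12 libraries and is not a member.

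Among the 5 subunits of eIF2B, the exchange factor of eIF2, Eif2b4 moved in opposite directions with the 2 drugs. It encodes the delta subunit and lies on chromosome 5 at 31344902 to 31350774 (minus strand). Eif2b4 had 20.4, 20.5 and 28.6 CPM in CFZ-DOX, 71.4, 73.5 and 70.9 in CFZ, 11.3, 12.5 and 14.3 in DOX and 34.1, 36.8 and 36.9 in DMSO libraries. CFZ libraries were highest, then DMSO, CFZ-DOX and DOX libraries, with no overlap. The log2 fold change against DMSO was −0.63 ± 0.15, adjusted p = 0.00154 in CFZ-DOX, 1.0 ± 0.15, adjusted p = 0.000212 in CFZ and −1.5 ± 0.15, adjusted p = 1.32e-06 in DOX. CFZ-DOX was above DOX (0.87 ± 0.15, adjusted p = 0.00175), and the interaction was −0.13 ± 0.21, adjusted p = 0.694. The call against DOX was lost under library size scaling (0.66) and ribosomal protein scaling (0.097). Eif2b4 shares 204 exon bases with Snx17 on the opposite strand, and the strand setting of the counting was not given in the sources used here. Snx17 itself had a log2 fold change of −0.01 ± 0.16, adjusted p = 0.983 in CFZ and 0.44 ± 0.16, adjusted p = 0.024 in DOX against DMSO. Of the other subunits, Eif2b1 fell in CFZ-DOX and DOX. Eif2b2 was called higher in CFZ-DOX and CFZ, calls that were lost when some single libraries were left out. Eif2b3 and the catalytic Eif2b5 were not called against DMSO on the TMM scale over all 12 libraries, but both were called lower in DOX and CFZ-DOX under ribosomal protein scaling. Eif2b3 was called higher in CFZ in a fit of the CFZ and DMSO libraries alone. Without DOX 3 or CFZ-DOX 3, Eif2b5 was called higher in CFZ-DOX. Eif2b5 averaged 116 ± 22 CPM in CFZ-DOX, 92.1 ± 5.80 in CFZ, 99.8 ± 11 in DOX and 94.6 ± 5.37 in DMSO libraries.

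The 4 eIF2 kinases did not move together. Eif2ak2 encodes PKR, which senses double-stranded RNA, and had 24.1, 23.2 and 15.9 CPM in CFZ-DOX, 70.4, 56.0 and 69.1 in CFZ, 22.2, 19.5 and 18.6 in DOX and 46.1, 36.9 and 46.0 in DMSO libraries. CFZ libraries were highest and DOX and CFZ-DOX libraries lowest, with overlap between the 2 doxorubicin groups. Its log2 fold change against DMSO was −1.03 ± 0.17, adjusted p = 8.46e-05 in CFZ-DOX, 0.60 ± 0.17, adjusted p = 0.0162 in CFZ and −1.10 ± 0.17, adjusted p = 6.9e-05 in DOX. The CFZ call was lost without CFZ 1, CFZ 3 or DMSO 2. Eif2ak1, the heme-regulated kinase HRI, had 24.9, 26.0 and 34.5 CPM in CFZ-DOX, 69.4, 65.7 and 70.0 in CFZ, 37.1, 36.1 and 38.3 in DOX and 53.6, 54.2 and 52.9 in DMSO libraries. It was lower in CFZ-DOX (−0.91 ± 0.13, adjusted p = 2.29e-05) and DOX (−0.53 ± 0.13, adjusted p = 0.00272) than in DMSO libraries and not called in CFZ (0.35 ± 0.13, adjusted p = 0.0569). Its exons share 487 bases with Aimp2 on the opposite strand. Eif2ak3, the endoplasmic reticulum kinase PERK, had 45.4, 34.0 and 50.5 CPM in CFZ-DOX, 40.1, 32.9 and 35.1 in CFZ, 40.8, 41.9 and 49.3 in DOX and 38.3, 32.3 and 29.4 in DMSO libraries. The CFZ-DOX and DMSO libraries overlap. The calls of Eif2ak3 at 0.38 ± 0.16, adjusted p = 0.0495 in CFZ-DOX and 0.40 ± 0.16, adjusted p = 0.0428 in DOX were lost in most leave-one-out fits and turned negative under ribosomal protein scaling. Eif2ak4, the amino acid sensor GCN2, was not called on the TMM scale and lay between 27.1 and 37.9 CPM in the 12 libraries.

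Eif2a and Eif2d encode factors that can place the initiator tRNA without eIF2 in some settings. Eif2a averaged 71.8 ± 9.95 CPM in CFZ-DOX, 118 ± 8.53 in CFZ, 78.4 ± 11.1 in DOX and 105 ± 8.19 in DMSO libraries. It fell in CFZ-DOX (−0.55 ± 0.14, adjusted p = 0.00291). Eif2d averaged 61.4 ± 8.57 CPM in CFZ-DOX, 42.7 ± 4.05 in CFZ, 54.8 ± 5.62 in DOX and 39.9 ± 2.12 in DMSO libraries. Eif2d was higher in CFZ-DOX (0.62 ± 0.14, adjusted p = 0.000846; −1.03 under ribosomal protein scaling).

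Of the 7 genes grouped here under start codon selection and subunit joining, Eif1ad among them, 4 fell with doxorubicin. That is 57.1% in DOX and in CFZ-DOX, against 31.3% and 35.7% of all genes. Eif1a had 21, 19.5 and 45.3 CPM in CFZ-DOX, 194, 231 and 226 in CFZ, 47.8, 55.7 and 62.3 in DOX and 193, 213 and 196 in DMSO libraries. The doxorubicin libraries were far below the others: the highest of them, DOX 3, was at 62.3 CPM and the lowest of the rest, DMSO 1, at 193 CPM. The log2 fold change against DMSO was −2.81 ± 0.26, adjusted p = 3.27e-07 in CFZ-DOX, 0.11 ± 0.24, adjusted p = 0.777 in CFZ and −1.86 ± 0.25, adjusted p = 1.8e-05 in DOX. These were the largest falls of any member in CFZ-DOX and DOX. Eif1ax, the other eIF1A gene, had 295, 315 and 224 CPM in CFZ-DOX, 164, 170.1 and 172 in CFZ, 340.2, 329 and 258 in DOX and 198, 212 and 214 in DMSO libraries. It was higher in DOX (0.57 ± 0.15, adjusted p = 0.00421) and CFZ-DOX (0.42 ± 0.15, adjusted p = 0.0213) than in DMSO libraries, with −0.32 and −1.24 under ribosomal protein scaling. The CFZ-DOX call was lost without CFZ-DOX 1, CFZ-DOX 2 or any DMSO library, and under library size scaling (0.057). The 2 genes have similar sequences. How reads that map to both were treated was not given in the sources used here.

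Eif1, which keeps the scanning ribosome from starting at the wrong codon, had 663, 736 and 485 CPM in CFZ-DOX, 479.7, 565 and 518 in CFZ, 476, 416 and 257 in DOX and 378, 425 and 386 in DMSO libraries. CFZ-DOX was called higher than DMSO (0.66 ± 0.21, adjusted p = 0.0105; −1.0 under ribosomal protein scaling; lost without CFZ-DOX 2), and CFZ and DOX were not. Its paralogue Eif1b was lower in all 3 treatments (−0.80 ± 0.18 in CFZ-DOX, −0.69 ± 0.18 in CFZ and −0.58 ± 0.18 in DOX). The CFZ call was lost without CFZ 1 and the DOX call without DOX 2. Eif5, the GTPase activator of eIF2, averaged 252 ± 30.4 CPM in CFZ-DOX, 486 ± 40.7 in CFZ, 212 ± 17.0 in DOX and 353 ± 25.1 in DMSO libraries. It was lower than DMSO in DOX (−0.74 ± 0.14, adjusted p = 0.000354) and CFZ-DOX (−0.49 ± 0.14, adjusted p = 0.00554, but 0.012 under upper-quartile scaling). Eif5 was higher in CFZ (0.46 ± 0.14, adjusted p = 0.0232, lost without CFZ 2, CFZ 3, DMSO 1 or DMSO 3). Eif5b, the GTPase that joins the large subunit, fell to 66.4 ± 13.2 CPM in CFZ-DOX and 79.6 ± 17.8 CPM in DOX, against 163 ± 11.9 CPM in DMSO libraries, and was called in all 5 scalings. It shares exon bases with Rev1 on the opposite strand, which had a log2 fold change of −2.73 ± 0.26 in DOX. Eif1ad was called higher in CFZ (0.51 ± 0.14, adjusted p = 0.012) and not in DOX or CFZ-DOX on the TMM scale over all 12 libraries. The CFZ call of Eif1ad was lost without CFZ 2 or DMSO 1 and under library size and ribosomal protein scaling.

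The 14 eIF3 genes were called in both directions with doxorubicin. In DOX 5 were called higher (Eif3c, Eif3f, Eif3h, Eif3i and Eif3k) and 5 lower (Eif3a, Eif3d, Eif3g, Eif3j1 and Eif3j2) than in DMSO libraries. In CFZ-DOX 7 were higher (the same 5 with Eif3b and Eif3l) and 3 lower (Eif3a, Eif3j1 and Eif3j2). As shares these are 35.7% and 35.7% in DOX, near the 36.1% and 31.3% of all genes. In CFZ-DOX they are 50% and 21.4%, against 39.3% and 35.7% of all genes. Without DOX 3 the counts in DOX were 7 higher, with Eif3b and Eif3l, and 3 lower, without Eif3j1 and Eif3j2; the DOX call of Eif3j1 was also lost without DMSO 3. The CFZ-DOX call of Eif3b was lost without CFZ-DOX 1, CFZ-DOX 2, DMSO 1 or DMSO 3. CFZ alone raised 3, Eif3d, Eif3g and Eif3m, and lowered 0 (21.4% and 0%, against 14.4% and 14.4% of all genes). The call of Eif3m was lost in 9 of the 12 fits that left out a library and that of Eif3d without any CFZ or DMSO library, while that of Eif3g was kept. In a fit of the CFZ and DMSO libraries alone 8 were higher. Each rise in DOX and CFZ-DOX turned negative under ribosomal protein scaling, whereas the falls of Eif3a were called in all 5 scalings.

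Eif3a, on chromosome 19 at 60749555 to 60779096 (minus strand), encodes the largest subunit, around which the octamer core of eIF3 is built. It had 266, 296 and 268 CPM in CFZ-DOX, 908, 1088 and 1022 in CFZ, 356, 371 and 309 in DOX and 930.4, 1051 and 921 in DMSO libraries. CFZ and DMSO libraries overlap, and every doxorubicin library lies below every other library. Against DMSO the log2 fold change of Eif3a was −1.81 ± 0.15, adjusted p = 8.87e-08 in CFZ-DOX, 0.06 ± 0.14, adjusted p = 0.815 in CFZ and −1.49 ± 0.15, adjusted p = 8.39e-07 in DOX. Eif3h, on chromosome 15 at 51649954 to 51728919 (minus strand), encodes another core subunit and moved the other way. It had 1385, 1184 and 1013 CPM in CFZ-DOX, 505, 531 and 539 in CFZ, 855, 731 and 584 in DOX and 390.3, 409 and 399.9 in DMSO libraries. CFZ-DOX libraries were highest, then DOX, CFZ and DMSO libraries, with no overlap. For Eif3h the log2 fold change against DMSO was 1.58 ± 0.17, adjusted p = 1.21e-06 in CFZ-DOX, 0.39 ± 0.17, adjusted p = 0.0915 in CFZ and 0.86 ± 0.17, adjusted p = 0.000415 in DOX. Under ribosomal protein scaling the values were −0.083, 0.30 and −0.043.

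Eif3f, Eif3i and Eif3k followed Eif3h, with log2 fold changes in CFZ-DOX of 1.39 ± 0.16, 1.46 ± 0.15 and 1.35 ± 0.13 and in DOX of 0.56 ± 0.16, 0.80 ± 0.15 and 0.78 ± 0.13. Under ribosomal protein scaling the CFZ-DOX values were −0.29, −0.19 and −0.31. Eif3e, a core subunit, was not called in any treatment against DMSO on the TMM scale over all 12 libraries. In a fit of the CFZ and DMSO libraries alone it was called higher in CFZ. It averaged 447 ± 48.6 CPM in CFZ-DOX, 489 ± 44.9 in CFZ, 439 ± 68.5 in DOX and 408 ± 22.4 in DMSO libraries. Eif3g and Eif3d, which bind mRNA or the cap at the edge of the complex, were, like Eif2b4, higher in CFZ and lower in DOX. Eif3g had 96.1, 114 and 95.2 CPM in CFZ-DOX, 119, 141 and 129 in CFZ, 62.6, 63.5 and 51.9 in DOX and 82.6, 94.6 and 93.3 in DMSO libraries. CFZ libraries were above DMSO libraries (0.52 ± 0.13, adjusted p = 0.00777) and DOX libraries below them (−0.60 ± 0.13, adjusted p = 0.000937), while CFZ-DOX was not called (0.18 ± 0.13, adjusted p = 0.232). Eif3d was also higher in CFZ (0.42 ± 0.13, adjusted p = 0.0257) and lower in DOX (−0.61 ± 0.13, adjusted p = 0.00086). Eif3j1 and Eif3j2 are near-identical copies of the loosely bound j subunit, so the split of reads between them is uncertain. Both were lower in CFZ-DOX, with log2 fold changes of −0.84 ± 0.15 and −1.01 ± 0.15.

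**Figure D3:**
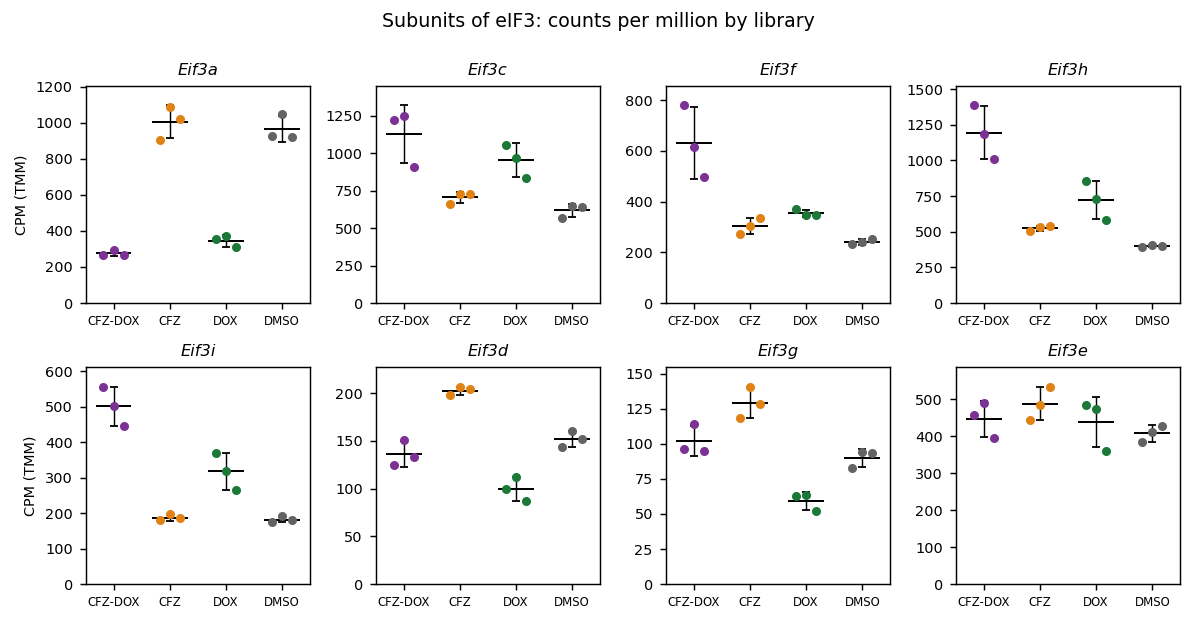
TMM-scaled CPM of 8 eIF3 subunits in each of the 12 libraries, with the mean and SD of 3 as bars. Columns are CFZ-DOX, CFZ, DOX and DMSO. Eif3a is lower in all doxorubicin libraries, Eif3c, Eif3f, Eif3h and Eif3i are higher there on this scale (under ribosomal protein scaling they are not). Eif3d and Eif3g are high in CFZ and low in DOX. Eif3e overlaps between groups, except that its CFZ libraries lie above its DMSO libraries.

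In eIF4F the cap-binding protein and a helper fell with doxorubicin, and on the TMM scale the scaffolds were not called lower. Eif4e, the cap-binding subunit, had 52.5, 60.4 and 67.8 CPM in CFZ-DOX, 123, 134 and 130.4 in CFZ, 87.6, 96.7 and 81.1 in DOX and 135, 163 and 133 in DMSO libraries. CFZ-DOX libraries were lowest, then DOX, and the CFZ libraries overlap with the DMSO libraries. The change of Eif4e against DMSO on the log2 scale was −1.26 ± 0.14, adjusted p = 1.27e-06 in CFZ-DOX, −0.15 ± 0.13, adjusted p = 0.428 in CFZ and −0.70 ± 0.13, adjusted p = 0.000349 in DOX. Eif4g1, the main scaffold, averaged 917 ± 267 CPM in CFZ-DOX, 762 ± 47.6 in CFZ, 1283 ± 208 in DOX and 1103 ± 59.3 in DMSO libraries. Against DMSO it was not called (−0.27 ± 0.21, adjusted p = 0.25 in CFZ-DOX, −0.53 ± 0.21, adjusted p = 0.0661 in CFZ and 0.22 ± 0.21, adjusted p = 0.358 in DOX). In CFZ it was called lower with the replicate number as a block (−0.54, adjusted p = 0.0156), by DESeq2, with no filter on low counts, under library size and ribosomal protein scaling, in a fit of the CFZ and DMSO libraries alone, and without DOX 3, CFZ-DOX 3 or both. Eif4g3 was not called in any treatment on the TMM scale over all 12 libraries. It was called higher in CFZ in a fit of the CFZ and DMSO libraries alone, and in CFZ-DOX without CFZ-DOX 3. Under ribosomal protein scaling Eif4g1 and Eif4g3 were called lower in CFZ-DOX (−1.94 and −1.37) and DOX (−0.67 and −0.78), and under library size scaling Eif4g1 was lower in CFZ-DOX (−0.65). Under upper-quartile scaling Eif4g1 was higher in DOX (0.60) and Eif4g3 in CFZ-DOX (0.82). Eif4g2, a relative that does not bind eIF4E, was called higher in CFZ-DOX (0.49 ± 0.19, adjusted p = 0.0321) and DOX (0.46 ± 0.19, adjusted p = 0.0453), but the CFZ-DOX and DMSO libraries overlap. The Eif4g2 calls were lost in most leave-one-out fits and the sign turned under ribosomal protein scaling.

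Eif4b, a partner of the helicase, lies on chromosome 15 at 101982208 to 102005608 (plus strand). It had 716, 692 and 519 CPM in CFZ-DOX, 925, 1039.6 and 1006 in CFZ, 418, 348 and 293 in DOX and 958, 1071 and 1084 in DMSO libraries. DOX libraries were lowest, then CFZ-DOX, with CFZ and DMSO libraries overlapping above both. Its log2 fold change against DMSO was −0.69 ± 0.17, adjusted p = 0.00202 in CFZ-DOX, −0.07 ± 0.17, adjusted p = 0.816 in CFZ and −1.56 ± 0.17, adjusted p = 3.02e-06 in DOX. CFZ-DOX was higher than DOX (0.86 ± 0.17, adjusted p = 0.00361) and the interaction was 0.93 ± 0.24, adjusted p = 0.0156. Both calls were lost under ribosomal protein scaling (0.097 and 0.26), and that of the interaction also without CFZ 1. Of the helicase paralogues, Eif4a2 averaged 126 ± 15.6 CPM in CFZ-DOX, 222 ± 4.47 in CFZ, 108 ± 21.8 in DOX and 247 ± 19 in DMSO libraries. It was called lower in CFZ-DOX and DOX in all 5 scalings. Eif4a1, the main form, was called in CFZ-DOX (−0.61 ± 0.19, adjusted p = 0.00951; CFZ −0.42 ± 0.19, adjusted p = 0.117; DOX −0.04 ± 0.19, adjusted p = 0.846). The pseudogene Eif4a-ps4 held 6881 counts over the 12 libraries. Eif4h, another helicase partner, was lower in CFZ-DOX (−0.89 ± 0.20, adjusted p = 0.000981).

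Of the 4 genes for proteins that bind eIF4E or resemble it, 3 fell with doxorubicin. That is 75% in DOX and in CFZ-DOX, against 31.3% and 35.7% of all genes. Eif4ebp2, a repressor that mTORC1 releases from eIF4E, lies on chromosome 10 at 61264270 to 61288440 (minus strand). It had 85.9, 88.2 and 102 CPM in CFZ-DOX, 169.8, 157 and 155 in CFZ, 110.1, 125 and 171 in DOX and 290.1, 299 and 297 in DMSO libraries. The DMSO libraries were above all treated libraries. For Eif4ebp2 the log2 fold change was −1.68 ± 0.16, adjusted p = 3.6e-07 in CFZ-DOX, −0.88 ± 0.15, adjusted p = 0.000753 in CFZ and −1.13 ± 0.16, adjusted p = 2.2e-05 in DOX. Eif4ebp2 and Eef2k were the members called lower than DMSO in every scaling in all 3 treatments. Its paralogue Eif4ebp1 was not called on the TMM scale over all 12 libraries (0.38 ± 0.20, adjusted p = 0.102 in CFZ-DOX, 0.20 ± 0.20, adjusted p = 0.507 in CFZ and 0.19 ± 0.20, adjusted p = 0.4 in DOX). In CFZ-DOX Eif4ebp1 was called higher without DOX 3 or CFZ-DOX 3 and in a fit of the CFZ-DOX and DMSO libraries alone. Eif4enif1, which carries eIF4E into the nucleus, fell to 25.6 ± 5.20 CPM in CFZ-DOX and 31.1 ± 6.81 CPM in DOX, against 71.9 ± 4.29 CPM in DMSO libraries. Eif4e2, a cap-binding homologue tied to repression, fell to 56.0 ± 10.1 CPM in CFZ-DOX and 74.4 ± 17.2 CPM in DOX, against 120.1 ± 5.95 CPM in DMSO libraries.

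Eif4a3, a helicase of the exon junction complex that shares the family name but not the initiation role of eIF4A, lies on chromosome 11 at 119179189 to 119190915 (minus strand). Eif4a3 had 46.2, 50.1 and 62.8 CPM in CFZ-DOX, 137, 147 and 129 in CFZ, 105, 119 and 91.3 in DOX and 149, 169 and 158 in DMSO libraries. The CFZ-DOX libraries were below all others. The change of Eif4a3 against DMSO on the log2 scale was −1.58 ± 0.15, adjusted p = 2.91e-07 in CFZ-DOX, −0.20 ± 0.14, adjusted p = 0.322 in CFZ and −0.59 ± 0.14, adjusted p = 0.002 in DOX. Eif6, which keeps the large subunit from joining too early, had 65.2, 74.9 and 60.9 CPM in CFZ-DOX, 140.1, 152 and 141 in CFZ, 72.2, 78.2 and 47.1 in DOX and 89.9, 103 and 87.7 in DMSO libraries. CFZ libraries were above the rest. The log2 fold change was −0.48 ± 0.17, adjusted p = 0.0168 in CFZ-DOX, 0.62 ± 0.17, adjusted p = 0.0112 in CFZ and −0.51 ± 0.17, adjusted p = 0.0146 in DOX. The CFZ call held in all 5 scalings but was lost without DMSO 3. The DOX call was lost without DOX 3 or DMSO 2. The CFZ-DOX call was lost without DMSO 2, and its value was 0.022 under upper-quartile scaling.

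**Figure D4:**
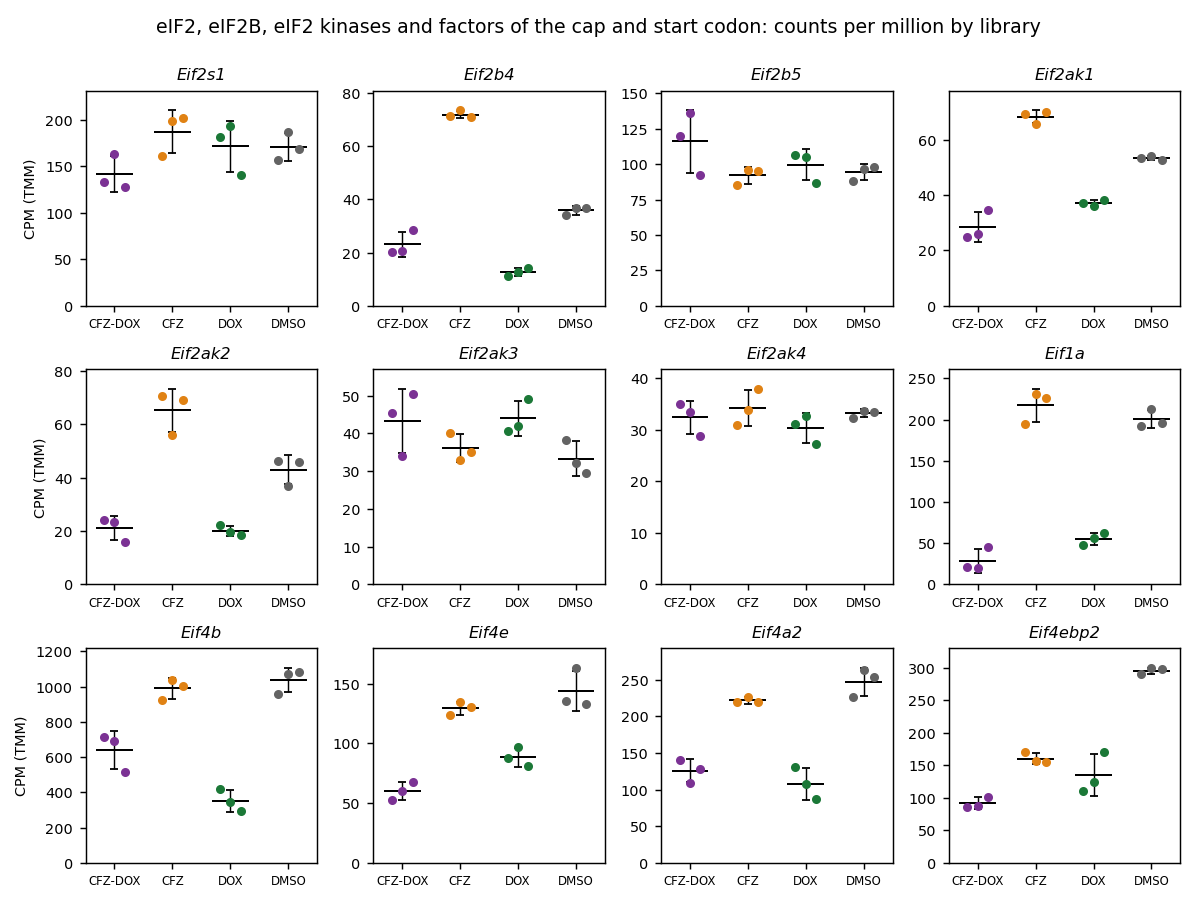
TMM-scaled CPM of 12 initiation genes in each of the 12 libraries, with the mean and SD of 3 as bars. Columns are CFZ-DOX, CFZ, DOX and DMSO. Eif2s1, Eif2b5 and Eif2ak4 overlap between groups, Eif2b4 and Eif2ak2 are highest in CFZ, Eif4b is lowest in DOX, and Eif1a, Eif4e and Eif4ebp2 are lowest in CFZ-DOX.

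The combination was also set against each drug alone, and Eef2k, Eif4e, Eif4a3 and Eif1a were called lower in it than in either in all 5 scalings. On the TMM scale Eif5a2, Eif4ebp2, Eef1e1 and Eif3j2 were also called lower than with either drug. Their calls against DOX were lost in a fit of the CFZ-DOX and DOX libraries alone. Those of Eif4ebp2, Eef1e1 and Eif3j2 were also lost under upper-quartile scaling and without CFZ-DOX 2. Without CFZ-DOX 1 those of Eif4ebp2 and Eef1e1 were lost, and without DOX 2 those of Eef1e1 and Eif3j2. Against CFZ, CFZ-DOX had 17 members higher and 30 lower (40.4% and 36.9% of all genes). In all 5 scalings 17 were lower (25.3% of all genes) and 0 higher (13.4%). Against DOX it had 13 higher and 10 lower (10.3% and 12% of all genes). In all 5 scalings 5 were lower (8.34% of all genes), Eef2k, Eif4e, Eif5a2, Eif4a3 and Eif1a, and 0 higher (0.763%). With the replicate number as a block, 16 were lower than DOX, and 18 without DOX 3 and CFZ-DOX 3. Without DOX 2 the count lower was 6, and without DOX 3 it was 16. In a fit of the 6 libraries of these 2 groups alone, Eif2b4 and Eif3g were higher and Eef2k and Eif4a3 lower, and the calls of Eif4e and Eif1a were lost. The rises against DOX were led by Eef2 (0.90 ± 0.20, adjusted p = 0.00741), Eif2b4, Eif4b and Eif3f (0.83 ± 0.16, adjusted p = 0.00336). The falls were led by Eif4a3 (−0.99 ± 0.14, adjusted p = 0.000485), Eif1a (−0.95 ± 0.25, adjusted p = 0.0148, lost without CFZ-DOX 1 or CFZ-DOX 2) and Eef2k (−0.87 ± 0.13, adjusted p = 0.000461). Eif4e and Eif5a2 had log2 fold changes of −0.56 ± 0.13, adjusted p = 0.00988 and −0.81 ± 0.17, adjusted p = 0.00435 relative to DOX.

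The interaction of the drugs, the log2 difference between the effect of the pair and the sum of the single effects, was called for 10 members: 2 higher and 8 lower, against 8.46% and 11.2% of all genes. With the replicate number as a block 5 were higher and 10 lower, and without DOX 3 and CFZ-DOX 3 the counts were 12 and 17. With single libraries left out, 7 were higher without CFZ-DOX 3, 0 without CFZ 1 and 1 without any other except DOX 1 and DOX 3. The lower count was 4 without CFZ 3 and 5 without DMSO 1. Eef1a2, Eef1e1 and Eif4a3 were lower in all 5 scalings (6.58% of all genes; 0 members were higher, against 1.5%), and Eef1a2 was kept by the filter through its CFZ libraries. Eif4a3 fell by more with both drugs than the sum of its single changes (−0.79 ± 0.20, adjusted p = 0.0146). Eef1e1 had an interaction of −0.93 ± 0.20, adjusted p = 0.00626: it was above DMSO in CFZ and below DOX in CFZ-DOX libraries. For Eif2ak1 the interaction was −0.74 ± 0.19, adjusted p = 0.0137 and for Eif1a −1.06 ± 0.35, adjusted p = 0.044, a call lost in 10 of the 12 fits that left out a library. The Eif3j copies had −0.76 ± 0.21 for Eif3j1 and −0.77 ± 0.21 for Eif3j2. Eif4b had the positive value given above, and that of Eif3i, 0.62 ± 0.21, adjusted p = 0.0484, was lost in most leave-one-out fits.

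Ratios between 2 members within a library, each count divided by the exon length of its gene, do not depend on the scaling of the library. The pairs were chosen after their values had been seen, so the ratios are a description with no test. Eif3a over Eif3h was 0.0434 ± 0.00710 in CFZ-DOX, 0.354 ± 0.0234 in CFZ and 0.0895 ± 0.0111 in DOX libraries, against 0.447 ± 0.0255 in DMSO libraries (SD, n = 3). Every doxorubicin library was below every other. Eef1a1 over Eif3a was 291 ± 60.8 in CFZ-DOX, 32.7 ± 2.55 in CFZ and 134 ± 19.7 in DOX libraries, against 28.4 ± 1.85 in DMSO libraries. The mean ratio of Eef1a1 to Eif3a was 10.2 times the DMSO mean in CFZ-DOX and 4.71 times in DOX. Eif1a over its paralogue Eif1ax was 0.141 ± 0.0990 in CFZ-DOX, 1.63 ± 0.115 in CFZ and 0.232 ± 0.0661 in DOX libraries, against 1.22 ± 0.0566 in DMSO libraries. The 3 CFZ libraries were the highest and the CFZ-DOX and DOX libraries overlapped, CFZ-DOX 3 lying among the DOX libraries.

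Eif2b4 over Eif2b5, 2 subunits of the same complex, was 0.210 ± 0.0864 in CFZ-DOX, 0.781 ± 0.0470 in CFZ and 0.129 ± 0.0307 in DOX libraries, against 0.380 ± 0.00498 in DMSO libraries. Its CFZ libraries were above all others and the 3 DMSO libraries lay close together. Eif4b over Eif4g2 was 0.743 ± 0.0731 in CFZ-DOX, 1.63 ± 0.0655 in CFZ and 0.409 ± 0.0224 in DOX libraries, against 1.66 ± 0.0792 in DMSO libraries, lowest in DOX. Eif4ebp2 over Eif4ebp1, the 2 measured eIF4E-binding repressors, was 0.136 ± 0.0430 in CFZ-DOX, 0.260 ± 0.0394 in CFZ and 0.237 ± 0.124 in DOX libraries, against 0.549 ± 0.0758 in DMSO libraries. Eef2k over Eef2 was 0.000597 ± 7.82e-05 in CFZ-DOX, 0.00389 ± 0.000399 in CFZ and 0.00206 ± 0.000450 in DOX libraries, against 0.00798 ± 0.000673 in DMSO libraries. The kinase and its substrate drew apart in all 3 treatments, with the DMSO mean at 13.4 times the CFZ-DOX mean, 2.05 times the CFZ mean and 3.88 times the DOX mean.

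**Figure D5:**
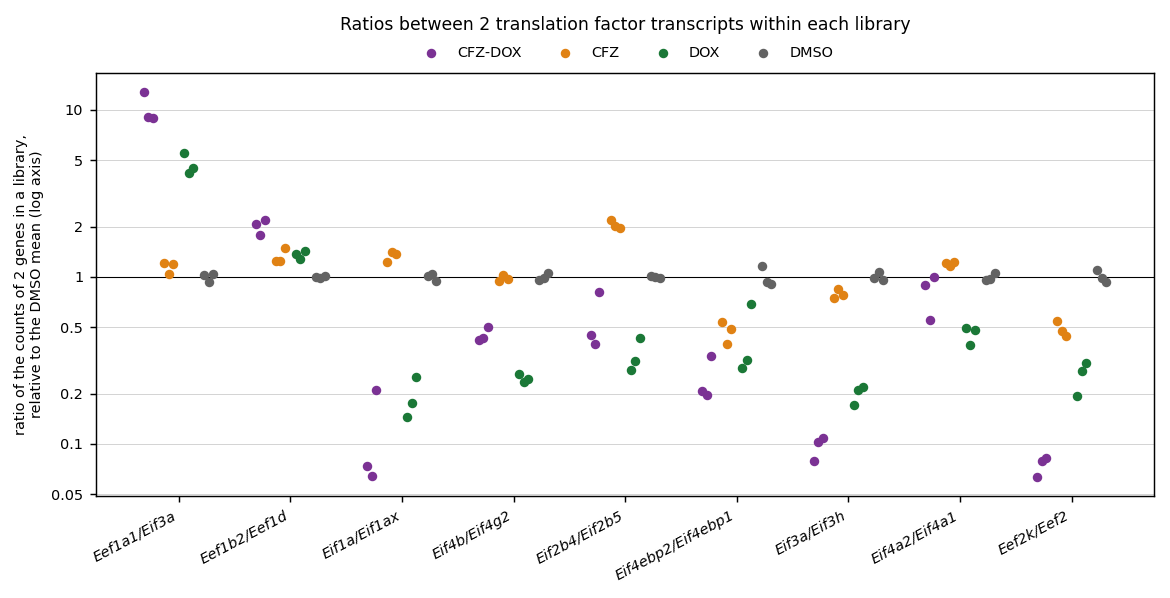
Ratio of the counts per exon base of 2 members in each library, divided by the mean ratio of the DMSO libraries (log axis; 1 is the DMSO mean), with 1 point per library and the 4 groups side by side in the order CFZ-DOX, CFZ, DOX and DMSO. Eef1a1/Eif3a lies above 4 in all doxorubicin libraries, Eif3a/Eif3h and Eef2k/Eef2 below 0.5 there, and Eif2b4/Eif2b5 near 2 in CFZ and below 1 with doxorubicin.

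A set of 10 members are known TOP mRNAs: Eef1a1, Eef1a2, Eef1b2, Eef1d, Eef1g, Eef2, Eif3e, Eif3f, Eif3h and Eif4b. Of these 10, CFZ raised 1, Eef1a2, which passed the filter through those libraries, and lowered 0. DOX raised 8 and lowered 1, and CFZ-DOX raised 7 and lowered 1 against DMSO. The shares are 80% and 10% in DOX, against 36.1% and 31.3% of all genes. In CFZ-DOX they are 70% and 10%, against 39.3% and 35.7% of all genes. Of the 54 other members CFZ raised 10 and lowered 5, DOX 9 and 24, and CFZ-DOX 14 and 26. The median log2 fold change of the TOP members was 0.26 in CFZ, 0.65 in DOX and 1.40 in CFZ-DOX, and that of the 54 others was 0.11, −0.23 and −0.29, against the medians of all genes given above. Eif4b was the TOP member that fell and Eif3e was called in no treatment on the TMM scale over all 12 libraries. All rises except those of Eef1b2 and Eef1a2 turned negative under ribosomal protein scaling. The list was drawn up with earlier results of these data known, so its count is no independent evidence of a direction.

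A tract of a C and at least 5 further pyrimidines within the first 50 bases was found in 22 of the 51 members with a RefSeq promoter entry (43.1%), against 37.0% of 27025 genes and 80.7% of 57 ribosomal protein genes. Among the 6 TOP members with an entry 4 held it. The search was on the transcribed strand and allowed any position in the 50 bases, so a match is a description of letters. Promoters were also searched on both strands from 250 bases before to 50 bases after the start for the E-box CACGTG, the core letters bound by MYC and related factors, and for TGACNNNGC and TGATGNAA, letters of antioxidant and amino acid response elements. CACGTG was found in 13 of 51 members (25.5%) and in 8.09% of all promoters. TGACNNNGC was found in 11 members (21.6%) and in 14% of all promoters, and TGATGNAA in 2 members (3.92%) and in 4.51%. Of the 13 members with CACGTG, CFZ raised 0 and lowered 2, DOX raised 4 and lowered 4, and CFZ-DOX raised 4 and lowered 7. Of the 38 without it the counts were 10 and 2, 7 and 17, and 11 and 16. Of the 11 members with TGACNNNGC, CFZ raised 2 and lowered 0, DOX raised 4 and lowered 4, and CFZ-DOX raised 5 and lowered 5. Of the 40 without TGACNNNGC the counts were 8 and 4, 7 and 17, and 10 and 18. Eif4e, Eif4a1, Eif4g1 and Eif5a are shown, because they carry the same E-box and had different values, with the 6 letters in capitals, 5′ to 3′ on the coding strand of each gene in GRCm38.p6. Eif2b4 follows with TGACNNNGC in capitals, since that gene had the largest rise in CFZ after Eef1a2.
Eif4e, chr3:138527028-138527057 plus: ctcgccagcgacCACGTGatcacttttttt
Eif4a1, chr11:69672595-69672624 minus: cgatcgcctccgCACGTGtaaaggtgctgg
Eif4g1, chr16:20672661-20672690 plus: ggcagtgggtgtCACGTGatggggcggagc
Eif5a, chr11:69921443-69921472 minus: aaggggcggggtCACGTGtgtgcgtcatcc
Eif2b4, chr5:31193094-31193123 minus: cgctggggacTGACTCCGCgggaggcatca
In CFZ-DOX against DMSO the first 3 carriers had log2 fold changes of −1.26 ± 0.14, −0.61 ± 0.19 and −0.27 ± 0.21 and Eif5a of 0.73 ± 0.18, so the same letters stood before members that fell, were not called or were higher. Eif4h and Eif5a2 also carry CACGTG, are not shown, and were at −0.89 ± 0.20 and −0.77 ± 0.17.

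A list of 53 tested genes that act beside the factors was drawn up with earlier results of these data known. CFZ raised 10 and lowered 2 of them (18.9% and 3.77%, against 14.4% and 14.4% of all genes). DOX raised 8 and lowered 35 (15.1% and 66.0%, against 36.1% and 31.3%), and CFZ-DOX raised 13 and lowered 35 (24.5% and 66.0%, against 39.3% and 35.7%). The median log2 fold changes were 0.05, −0.71 and −1.03. Over the other 4 scalings the count lower was 25 to 47 in DOX and 26 to 50 in CFZ-DOX, lowest under upper-quartile and highest under ribosomal protein scaling. Of 5 genes for the eIF2 phosphatase and the regulators of GCN2, Ppp1r15a, the stress-induced phosphatase subunit GADD34, had a log2 fold change of 2.18 ± 0.25 in CFZ-DOX and 2.87 ± 0.26 in CFZ against DMSO, and of 2.23 ± 0.25 in CFZ-DOX against DOX. Impact, an inhibitor of GCN2 activation, had a log2 fold change of 2.23 ± 0.15 in CFZ, with an interaction of −2.15 ± 0.21. Atf4, the transcription factor whose translation rises when eIF2 is phosphorylated, had a log2 fold change of −2.87 ± 0.18 in CFZ-DOX and −3.38 ± 0.19 in DOX. Of 11 genes of mTORC1 and the eIF4E kinases, DOX lowered 7 and raised 2, with Mlst8, a subunit of mTORC1, at a log2 fold change of −2.01 ± 0.18 and Tsc2, which restrains mTORC1, at 0.79 ± 0.15 (−0.10 under ribosomal protein scaling). Rptor, the scaffold of mTORC1, rose in CFZ (1.07 ± 0.13) and had an interaction of −1.55 ± 0.19.

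Of 8 genes for termination and recycling, 6 were lower in both DOX and CFZ-DOX than in DMSO libraries (75%, against 31.3% and 35.7% of all genes). Denr, which helps to recycle the small subunit and to restart ribosomes, had a log2 fold change of −2.79 ± 0.16 in CFZ-DOX, −1.68 ± 0.16 relative to DOX and an interaction of −2.08 ± 0.22, the lowest interaction in the list after Impact. Abce1, which splits ribosomes, was at −2.30 ± 0.18 in CFZ-DOX. Of the 8 genes of stalled ribosome surveillance 7 were lower in DOX, with Usp10, which removes ubiquitin from small subunits, at −2.06 ± 0.14. Of 8 genes for the hypusine of eIF5A and the diphthamide of eEF2, DOX raised 1 and lowered 4. Dph7, of diphthamide synthesis, was at a log2 fold change of 3.72 ± 0.32 in CFZ-DOX and 3.01 ± 0.32 in DOX. Of 8 genes for poly(A)-binding protein and its partners, DOX and CFZ-DOX each raised 4 and lowered 4, with Paip2, which displaces the poly(A)-binding protein, at 1.44 ± 0.16 in CFZ-DOX and 1.01 ± 0.16 in DOX. Of 3 initiation helicases outside eIF4F 2 fell in DOX and CFZ-DOX and none was called in CFZ, and both selenocysteine decoding genes were lower in DOX and CFZ-DOX.

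Symbols below the minimum were Eif2s3y with 1 count, Eif4e3 with 2, Eif2c5 with 4, Eif4e1b with 33 and Eif4ebp3 with 51 counts over the 12 libraries. A count of 0 in a library allows up to 3 counts, which is 0.0714 to 0.106 CPM and covers counting error only. By level per kilobase of exon, which allows genes to be compared, Eef1a1 was the highest member in DMSO libraries. It was at 9180 ± 1644 CPM per kb in CFZ-DOX, 3750 ± 215 in CFZ, 5307 ± 962 in DOX and 3142 ± 29.4 in DMSO libraries. The median member was at 26.2 CPM per kb in CFZ-DOX, 37.7 in CFZ, 25.7 in DOX and 35.5 in DMSO libraries. Eef1a1 and Eef2 made up 62.6% of the members' CPM in CFZ-DOX, 47.0% in CFZ, 52.8% in DOX and 42.3% in DMSO libraries. Exon bases were shared with another gene by 27 members, 19 of them with a gene on the opposite strand. For 12 the partner held at least 10% of the member's counts: Eef1akmt3, Eef1akmt4, Eef1b2, Eef2kmt, Eif1ad, Eif2a, Eif2ak1, Eif2b4, Eif2d, Eif3j1, Eif4a2 and Eif5b. In DOX against DMSO the 21 members with the longest genes (24171 to 215487 bases) had a median log2 fold change of −0.42, with 3 called higher and 11 lower. The 22 shortest (2212 to 10510 bases) had −0.05, with 8 and 8. The 21 between them had 0.04, with 6 and 6, so the medians did not fall steadily with length. Of all genes 36.1% were called higher and 31.3% lower in DOX. The Spearman rho between gene span and the log2 fold change in DOX was −0.16 over the 64 members and −0.32 over all genes tested. These are values across genes of the same libraries, given as a description.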

How the data were processed

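The table that the authors deposited holds unnormalised integer counts for each Ensembl gene ID in 12 libraries, beside exon length and position. Tools and build named in the submitters' processing notes were featureCounts of Subread 2.0.2, STAR 2.7.9a, Trimmomatic 0.39 and GRCm39. The sources used here name no annotation release, strand setting or treatment of multiply mapped reads. Groups come from the sample titles. Symbols were matched to 52073 of 56980 IDs (91.4%), and 0 other columns of per-sample values were present.

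The filterByExpr filter of edgeR, at a minimum count of 10 and a minimum total of 15, kept 16648 genes. They were tested in 1 model of all 12 libraries with edgeR 4.0.16 (R 4.3.3; quasi-likelihood F test, robust fit, TMM scaling, prior count 0.125) with Benjamini-Hochberg adjustment, called at an adjusted p under 0.05. Each SE is the absolute log2 fold change over √F. The code was tested on simulated data. Replicates differed by more than sampling noise (chi-square per degree of freedom 12.4 to 108) and were all kept. Alternatives were 4 other scalings, DESeq2 1.42.0, no filter, only the libraries compared, each library left out and the replicate number as a block. Libraries with the same number deviated together across genes (r of 0.65, 0.54 and 0.58 between CFZ and DMSO, 0.31, 0.39 and 0.17 between DOX and DMSO, 0.74, 0.58 and 0.78 between CFZ-DOX and DOX, 0.36, 0.11 and 0.12 between CFZ-DOX and CFZ), a pairing that comes from the data and not from the labels.

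The members, complexes and lists were chosen with earlier results of these data known. The 6 called members with the largest rises and falls of each comparison and a set of core factors are described, not all with values for each library or comparison. Other members are described with their complex. Sequences are from RefSeq (promoters of 51 members, GRCm38.p6) and GENCODE M21 and share no coordinates with the counts.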

Additional observations from a re-analysis of the deposited data

Results flagged for a closer look

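The effect of carfilzomib differed with and without doxorubicin for 10 members, by the interaction term of the edgeR model (log2 scale, adjusted p under 0.05). The value of Eef1a2, −6.57, rests on few counts, 8 in CFZ-DOX, 152 in CFZ, 28 in DOX and 4 in DMSO libraries, and the gene passed the filter through the CFZ libraries. Eif1a had −1.06 and Eef1e1 −0.93. Eif4a3 had −0.79, Eif5a2 −0.78, Eif3j2 −0.77, Eif3j1 −0.76 and Eif2ak1 −0.74. The positive values were 0.62 for Eif3i and 0.93 for Eif4b. Eif3i turned to −0.048 under ribosomal protein scaling. The calls of Eif1a, Eif3i and Eif5a2 were lost in 7 or more of the 12 fits that left out a library (10 for Eif1a), that of Eif3j1 in 3, those of Eif3j2 and Eif4b without CFZ 3 and CFZ 1. Libraries of CFZ-DOX took part in every value, and CFZ-DOX 3 was the highest of its group in Eif1a, Eif2ak1, Eif4a3 and Eef1e1, at 45.3, 34.5, 62.8 and 19.8 CPM. Without CFZ-DOX 3 all 10 calls were kept, and Eif1a was at −1.57, Eef1e1 at −1.04 and Eif4a3 at −0.93.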

How the results depend on the processing

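Scaling changed both signs and counts. Under ribosomal protein scaling the counts of members higher and lower were 7 and 8 in CFZ against DMSO, 0 and 56 in DOX, 0 and 57 in CFZ-DOX, 0 and 61 in CFZ-DOX against CFZ, 0 and 49 in CFZ-DOX against DOX and 0 and 41 for the interaction, and signs changed as follows. In DOX against DMSO the log2 fold changes became Eif3h −0.043, Eif3i −0.090, Eif3k −0.11, Eef1akmt3 −0.076, Eif2s3x −0.69, Eif5a2 −0.84, Eif4g3 −0.78, Eif2ak3 −0.45, Eif4g2 −0.43, Eef2 −0.21, Eif4ebp1 −0.71, Eef1a1 −0.14, Eif5a −0.29, Eif2s1 −0.88, Eif3e −0.79, Eif2b5 −0.81, Eif4g1 −0.67 and Tsc2 −0.10. In CFZ-DOX against DMSO the log2 fold changes became Eef2 −0.085, Eif3h −0.083, Eef1a1 −0.12, Eif3i −0.19, Eef1g −0.27, Eif2s3x −1.49, Eif4g3 −1.37, Eif2ak3 −1.26, Eif4g2 −1.19, Eif4ebp1 −1.28, Eif1 −1.0, Eif5a −0.93, Eif3e −1.52, Eif2b5 −1.36 and Paip2 −0.23. In CFZ-DOX against CFZ the log2 fold changes became Eif3i −0.14, Eef1akmt3 −0.15, Eef1a1 −0.28, Eif3k −0.29, Eef1g −0.30 and Pabpc4 −0.29. In CFZ-DOX against DOX the log2 fold changes became Eif6 −0.71, Eif2ak4 −0.68, Eif4g3 −0.60, Eif4g2 −0.76, Eif4ebp1 −0.57, Eif1 −0.029, Eif5a −0.64, Eif5 −0.53, Eif3e −0.73, Eif2b5 −0.55, Eif4a2 −0.53, Eif2ak2 −0.72, Dph1 −0.17 and Zfp598 −0.17. For the interaction that of Eif3i became −0.048. Under upper-quartile scaling the counts were 7 higher in CFZ, 27 and 10 in DOX, 15 lower in CFZ-DOX against DMSO, 30 and 17 against CFZ, 5 lower against DOX and 4 and 4 for the interaction; in CFZ-DOX against DMSO the values were Eif6 0.022, Eif2ak4 0.46 and Eif5 0.012. Library size gave 8 lower in CFZ, 13 higher in CFZ-DOX against DMSO, 18 lower against DOX and 6 higher for the interaction, and RLE size factors gave 5 higher for the interaction. DESeq2 gave 9 higher for the interaction, and no filter on low counts gave 4 higher in CFZ and 1 for the interaction. A fit of only the libraries compared gave 23 and 10 in CFZ and 2 and 2 in CFZ-DOX against DOX. A fit without DOX 3 and CFZ-DOX 3, chosen after seeing the data, gave 22 and 10 in CFZ, 18 lower in CFZ-DOX against DOX and 12 and 17 for the interaction. The cause of these shifts was not tested. Leaving out 1 library at a time gave 5 to 14 members higher and 3 to 8 lower in CFZ, 13 to 21 and 20 to 26 in DOX, 16 to 23 and 26 to 28 in CFZ-DOX against DMSO, 15 to 19 and 28 to 31 when CFZ was the base, 11 to 15 and 6 to 16 when DOX was the base and 0 to 7 and 4 to 11 for the interaction. Without ribosomal protein counts in the denominator the members' share was 5.56% in CFZ-DOX, 3.49% in CFZ, 4.19% in DOX and 3.37% in DMSO libraries.

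With the replicate number as a block, 8 members were lower in CFZ against DMSO, 16 were lower in CFZ-DOX against DOX and 5 were higher for the interaction; the other 9 counts of members moved by less than 1.5 times. CFZ-DOX and DMSO libraries of the same number share only that number, with r of 0.36, 0.15 and 0.05; the block left their counts at 21 and 27. Depth limits Eef1a2, with 192 counts in all, and the methyltransferases.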
